A study of Mus musculus with 2 samples.

Results

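The conducting airways were described in 1 lung section of a control mouse and 1 lung section of a mouse with metastases, both measured by Visium, which counts transcripts in an array of barcoded spots that each cover several cells. Airway spots were chosen by measured expression. In each section, spots over tissue with at least 1000 counts were scored by the mean log1p level (counts per 10000) of 5 genes, namely Cyp2f2 of club cells and Ccdc153, Dynlrb2, Tppp3 and Sec14l3 of ciliated cells. The top 10% of spots by this score were taken as airway and the bottom 50% as the reference. This gave 186 airway spots of 1888 in the control lung and 110 of 1110 in the metastatic lung, so 296 of the 2998 spots in all, with 930 and 552 reference spots.

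The mice were female Balb/c animals with a stated age of 6 to 8 weeks, which for the metastatic mouse is the age at injection. The sections may therefore differ in age at sampling. The metastatic lung came from a mouse given 4T1 cells, a mouse mammary carcinoma line, in the mammary fat pad and killed 21 to 23 days later, and the control mouse had no treatment. Lungs were fresh frozen. There was 1 section for each condition, so animal, section level, library and disease cannot be told apart, spots are not replicates, and no test between conditions was possible.

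Conducting airways are lined by club cells, which secrete proteins of the secretoglobin family and carry enzymes that modify inhaled chemicals, and by ciliated cells, whose beating axonemes move mucus. Foxj1 and the RFX factors are known to switch on the genes of motile cilia. Smooth muscle and fibroblasts surround the epithelium, and large proximal airways make more mucins and antimicrobial proteins than small distal ones.

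Cilia genes stood above the reference in both sections, so promoters of this group are shown first. Of 108 cilia genes and ciliated-cell markers, 90 had a promoter in the RefSeq table (GRCm38.p6, 250 bases before to 50 bases after the start site). GTTGCC, the half-site of the RFX motif, was found on either strand in 43 of them (47.8%), against 3821 of all 27025 genes with a promoter of this length (14.1%). The forkhead motif TGTTTAC was found on either strand in 6 (6.67%), against 4.05% of all genes. Of the 9 club cell genes with a promoter, 0 held the half-site and 0 the forkhead motif. Of the 22 alveolar AT1 and AT2 cell genes with a promoter, 4 held the half-site (18.2%) and 3 the forkhead motif (13.6%), a larger share for the forkhead motif than among the cilia genes. The motifs do not overlap in their letters, and a match is a description of the letters and not a binding site. The promoters of the markers Dynlrb2 and Ccdc153 and of Fam183b, a ciliated-cell gene, are shown 5′ to 3′ on the strand of the gene, because each holds the half-site, which is in capitals.
Dynlrb2 (chr8:116504765-116505064, plus strand): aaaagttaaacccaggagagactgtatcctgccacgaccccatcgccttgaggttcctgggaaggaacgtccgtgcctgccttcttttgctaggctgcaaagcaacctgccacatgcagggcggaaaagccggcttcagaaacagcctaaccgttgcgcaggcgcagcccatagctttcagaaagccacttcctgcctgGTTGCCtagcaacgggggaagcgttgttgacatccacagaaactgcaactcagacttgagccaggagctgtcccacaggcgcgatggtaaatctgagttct
Ccdc153 (chr9:44240427-44240726, plus strand): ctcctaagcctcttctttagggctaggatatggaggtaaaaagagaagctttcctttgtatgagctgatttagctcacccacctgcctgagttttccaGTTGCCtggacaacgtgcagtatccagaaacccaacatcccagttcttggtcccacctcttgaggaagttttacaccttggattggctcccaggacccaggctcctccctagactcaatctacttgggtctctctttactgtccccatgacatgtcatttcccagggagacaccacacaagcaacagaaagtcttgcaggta
Fam183b (chr11:58801911-58802210, minus strand): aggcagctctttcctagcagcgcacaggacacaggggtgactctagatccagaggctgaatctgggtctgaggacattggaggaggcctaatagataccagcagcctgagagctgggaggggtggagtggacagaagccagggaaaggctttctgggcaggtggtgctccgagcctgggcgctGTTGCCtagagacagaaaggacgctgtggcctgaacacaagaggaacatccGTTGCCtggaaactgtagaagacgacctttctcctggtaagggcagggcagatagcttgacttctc
The half-site lay 51 bases before the start site in Dynlrb2, 152 bases before it in Ccdc153, and 67 and 16 bases before it in Fam183b.

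Most airway spots lay in patches of 5 or more touching spots, 132 of 186 in the control lung and 83 of 110 in the metastatic lung. Single spots numbered 17 and 11. With single spots included, the airway spots of the control lung formed 37 patches. The largest, of 108 spots, was a branched tract that held more spots than all the other patches together (78 spots). In the metastatic lung there were 25 patches, the largest of 30 spots and the next of 13. Patches of 5 or more spots numbered 5 in the control lung and 7 in the metastatic lung. The median airway spot had 16379.5 counts in the control lung and 19884.5 in the metastatic lung, which was 1.89 and 1.87 times the median reference spot. Scores of airway spots ran from 1.52 to 2.48 in the control lung and from 1.47 to 2.08 in the metastatic lung, and the highest reference score was 0.950 and 0.864. Beside the threshold, the 5 lowest airway spots scored 1.516 to 1.523 and the 5 next spots 1.507 to 1.510 in the control lung, and 1.467 to 1.475 against 1.454 to 1.466 in the metastatic lung. The sections share 858 spot barcodes, since the arrays carry the same barcode set.

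**Figure D1:**
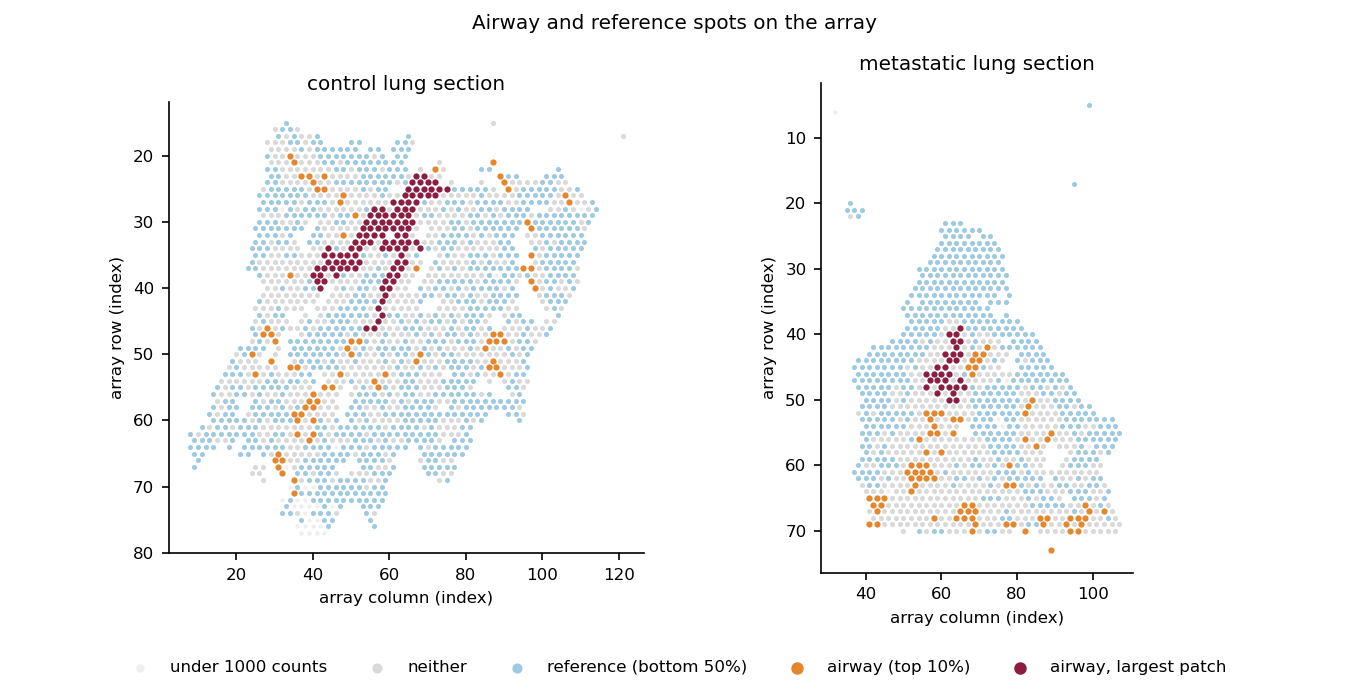
Position of each spot over tissue by array column and row (index) in the control section (left) and the metastatic section (right). Dark red marks the largest patch of touching airway spots (108 and 30 spots), orange the other airway spots and blue the reference spots. Airway spots lie in tracts, small clusters and single spots.

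What the reference held differed between the sections. Levels here are summed counts of a gene or list per 10000 summed counts over a group of spots. In the control lung, cardiac muscle genes stood at 64.1 in reference spots and 6.40 in airway spots, against 0.219 and 1.06 in the metastatic lung, and 96 of the 930 control reference spots had over 50. The metastatic reference spots had more proliferation genes (9.47 against 4.84 in the control reference) and interferon response genes (27.2 against 8.47). Intervals in brackets are exact 95% intervals of a ratio of counts and cover counting error only. In spots, fewer cells of a type and less RNA per cell cannot be told apart.

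The airway label was checked with genes that the score did not use. Scgb1a1, the secretoglobin that defines club cells, was the most abundant transcript in 184 of 186 control airway spots and in 110 of 110 metastatic airway spots. It made up 49.8% of all airway counts in the control lung and 50.6% in the metastatic lung, against 3.12% and 1.98% of reference counts. Over single airway spots its share ran from 3.77% through a median of 46.5% to 69.9% in the control lung, and from 11.97% through 43.7% to 71.6% in the metastatic lung. Foxj1, the master regulator of motile cilia, ran from 0 through a median of 1.16 to 10.7 per 10000 over control airway spots, with a count in 147 of them, and from 0 through a median of 0.786 to 2.95 over metastatic airway spots, with a count in 88. Its summed level was 1.41 against 0.0991 in the control reference and 0.977 against 0.0500 in the metastatic reference, ratios of 14.3 (11.3 to 18.2) and 19.5 (13.5 to 29.2). The tuft cell and basal cell lists were each at 0.0766 per 10000 or less in every group.

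Scgb1a1 took about as many airway counts as all other genes together, which lowers the share of every other gene. Over the genes tested, the median log2 ratio of airway over reference was -1.10 in the control lung and -1.06 in the metastatic lung, and -0.15 and -0.07 with Scgb1a1 left out of the total. Ratios below are on all counts, with list medians also given on the second scale. The spots were chosen from these same counts, so every airway over reference value is a description of the chosen spots.

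In the control lung 592 of 11887 genes (4.98%) were at least 2-fold higher in airway than in reference spots and 6618 (55.7%) at least 2-fold lower. In the metastatic lung 373 of 11223 (3.32%) were higher and 6219 (55.4%) lower. Without Scgb1a1 in the total the split was 1221 higher and 1694 lower in the control lung, and 912 and 1016 in the metastatic lung. Of the 10890 genes tested in both, 280 (2.57%) were at least 2-fold higher in both, which is 76.3% of the 367 higher in the control lung and 75.7% of the 370 higher in the metastatic lung. At least 2-fold lower in both were 4196 genes (38.5%). Across these genes, which are not independent, Pearson's r between the sections was 0.70 and Spearman's rho 0.49.

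**Figure D2:**
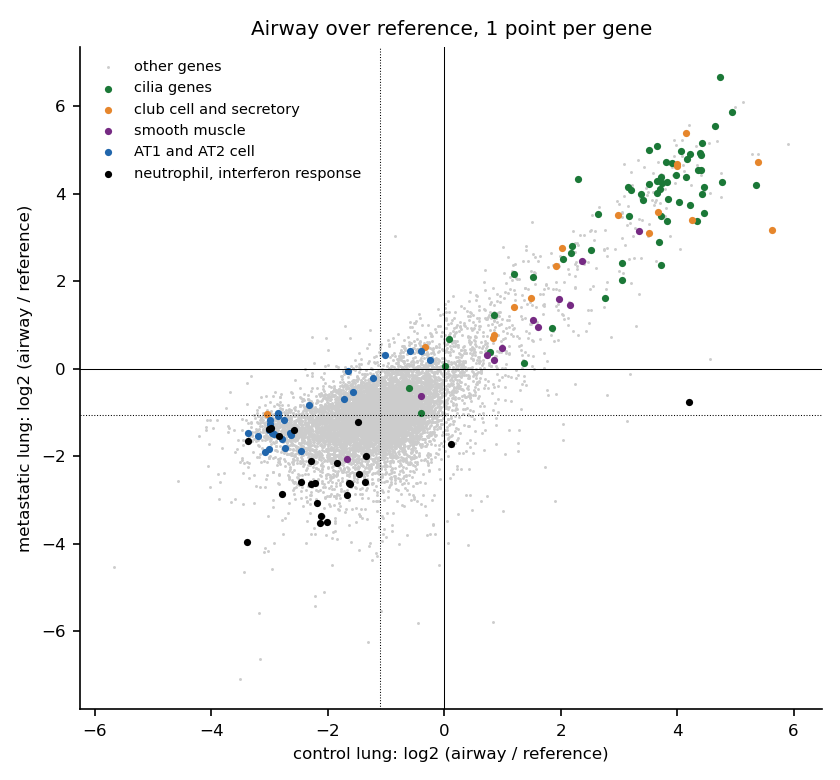
Log2 ratio of airway over reference spots in the control lung (horizontal axis) and in the metastatic lung (vertical axis), 1 point per gene for 10890 genes. Dotted lines mark the medians of all genes; cilia, club cell and secretory genes lie mostly at the upper right, and alveolar, neutrophil and interferon response genes mostly at the lower left.

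Cilia genes stood above the reference almost throughout. In airway over reference comparisons the airway value is given first. Of the score genes, which were chosen for it, Dynlrb2, a dynein light chain, stood at 2.58 against 0.0731 per 10000 in airway and reference spots of the control lung and at 1.55 against 0.0219 in the metastatic lung. Tppp3, a tubulin-binding protein, and Sec14l3, a lipid-binding protein, differed less, at 1.45 and 1.88 times the reference in the control lung and 3.21 and 3.25 times it in the metastatic lung. Of 102 other cilia genes in the table, 89 had at least 50 counts in the control lung, of which 83 were at least 2-fold higher in airway spots and 0 lower (median log2 3.72, or 4.67 without Scgb1a1 in the total). In the metastatic lung 61 had enough counts, with 54 higher and 1, Arl13b, lower (median 4.01, or 4.99). A gene can reach 50 counts through its airway counts alone, so these numbers carry no weight as a test.

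The arms of the axoneme followed this pattern. Dnah5, a heavy chain of the outer dynein arm, had 255 counts in control airway spots and 21 in the reference, or 0.677 against 0.0248 per 10000. In the metastatic lung it had 63 counts against 1, a ratio of 151 (26.2 to 6077). Dnali1, a light chain of the inner arm, stood at 0.911 against 0.0330 in the control lung and at 0.4999 against 0.0250 in the metastatic lung. Zmynd10, which is needed to assemble dynein arms, had log2 ratios of 3.65 and 4.02.
Radial spoke and central pair genes were also higher. Rsph1, a radial spoke head protein, stood at 1.58 against 0.0767 in the control lung and at 1.000 against 0.0422 in the metastatic lung. Rsph4a, another spoke head protein, had a log2 ratio of 4.94 in the control lung and 60 counts against 2 in the metastatic lung (ratio 72.1, 19.1 to 609). Spag6l, a central pair protein, had log2 ratios of 5.36 and 4.20. Of this list, 17 of 17 genes in the control lung and 8 of 8 in the metastatic lung were at least 2-fold higher.
Among the regulators, Trp73, which acts above Foxj1, had 71 counts against 4 in the control lung and 30 against 1 in the metastatic lung. Myb, which acts early in multiciliated cells, had log2 ratios of 3.05 and 2.41. The factors Rfx2 and Rfx3 were closer to the reference (0.86 and 1.21 in the control lung, 1.23 and 1.197 in the metastatic lung). Among tubulins in wider use, log2 ratios were -0.60 and -0.44 for Tuba1a and 0.78 and 0.39 for Tubb4b, or 0.35 and 0.55 for Tuba1a and 1.726 and 1.37 for Tubb4b without Scgb1a1 in the total.

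Secretory and detoxifying genes made up another group. Scgb1a1 stood at 4977 against 312 per 10000 in the control lung and at 5058 against 198 in the metastatic lung. Cbr2, a carbonyl reductase of club cells, stood at 87.8 against 21.7 and at 95.1 against 13.9. Hp, which encodes haptoglobin, stood at 22.1 against 2.79 and at 27.3 against 2.39. The secretory proteins were higher throughout, with 13 of 13 at least 2-fold higher in the control lung and 8 of 8 in the metastatic lung. Of 12 club cell genes, 8 were at least 2-fold higher in each section (median log2 1.75 in the control lung and 2.20 in the metastatic lung, or 2.70 and 3.18 without Scgb1a1 in the total). Xenobiotic metabolism was mixed on all counts (median log2 0.85 in the control lung and 0.82 in the metastatic lung, or 1.80 and 1.81 without Scgb1a1 in the total). Of 31 genes in the control lung 15 were at least 2-fold higher and 6 lower, and of 28 in the metastatic lung 12 were higher and 3 lower. Without Scgb1a1 in the total, 20 were higher and 1 lower in each section. Cyp2s1, a cytochrome P450, had log2 ratios of 3.51 and 4.04, and Fmo2, a flavin monooxygenase, -1.59 and -0.36. The median of all genes was -1.10 and -1.06, so Fmo2 was above it in the metastatic lung.

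The 12 genes outside the score with the highest ratio in both sections were Agr3, Rsph4a, Stk33, 4833427G06Rik, Dnah5, Cyp2a5, Sox2, AU040972, Cfap65, Nek5, Pifo and Cfap43, of which 5 are in the cilia lists. Sox2, the transcription factor of conducting airway epithelium, had 97 counts against 8 in the control lung and 53 against 3 in the metastatic lung. Cyp2a5, a cytochrome P450 whose counts are uncertain because it has a near-identical relative in Cyp2a4, had log2 ratios of 5.39 and 4.73. Agr3, a disulphide isomerase of ciliated cells, had 173 counts against 6 and 65 against 4.
At the other end stood genes of immune cells and of the pleural surface. Ighg2b, an antibody heavy chain, had 2 counts against 286 in the control lung, a ratio of 0.0157 (0.00190 to 0.0574), and 5 against 304 in the metastatic lung. Iigp1, an interferon-induced GTPase, had log2 ratios of -3.39 and -3.97, Il2rb of T and NK cells -3.66 and -3.03, and Mmp12, the macrophage elastase, -3.03 and -3.36. Upk3b, a mesothelial marker, stood at 0.0478 against 0.559 in the control lung, and in the metastatic lung it had 0 counts in airway spots against 163 in the reference, at least 22.6-fold lower with 3 counts as the limit for a count of 0. Upk1b and Cldn15 were also at 0 counts in metastatic airway spots. The others of the lowest 12 were Fbp2, Gm5547, Cmah, Bst1 and Espl1, with log2 ratios between -4.64 and -3.06.

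Tissue around the epithelium was partly included. Of 13 smooth muscle genes in the control lung 7 were at least 2-fold higher in airway spots and 2 lower, and of 11 in the metastatic lung 5 were higher and 1 lower (median log2 1.12 in the control lung and 0.97 in the metastatic lung, or 2.07 and 1.95 without Scgb1a1 in the total). Cnn1, the calponin of contractile smooth muscle, was 10.1 times the reference in the control lung (8.98 to 11.5) and 8.91 times it in the metastatic lung (6.28 to 12.9). The AT1 cell list had a median log2 ratio of -2.86 in the control lung and -1.16 in the metastatic lung, or -1.91 and -0.18 without Scgb1a1 in the total. For the AT2 cell list these were -2.55 and -1.43, or -1.60 and -0.44, and 4 of 14 AT2 genes were above the reference in the metastatic lung. The AT1 median of the metastatic lung was close to that of all genes on both scales. The AT1 cell list stood at 14.7 against 93.9 per 10000 in the control lung and at 22.7 against 48.4 in the metastatic lung, and the AT2 cell list at 95.4 against 435 and at 102 against 217. Over airway spots of 1 section, the log level of Scgb1a1 ran against that of the AT2 cell list (r = -0.62 over 186 control spots and -0.81 over 110 metastatic spots) and with the depth of the spot (0.60 and 0.78), and all these share the total of the spot. The cilia list ran with the club cell list without Scgb1a1 (r = 0.83 and 0.75) and against the AT2 cell list (r = -0.63 and -0.56). These values share the total of the spot too. Genes of club and of ciliated cells both enter the score by which the spots were chosen.

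**Figure D3:**
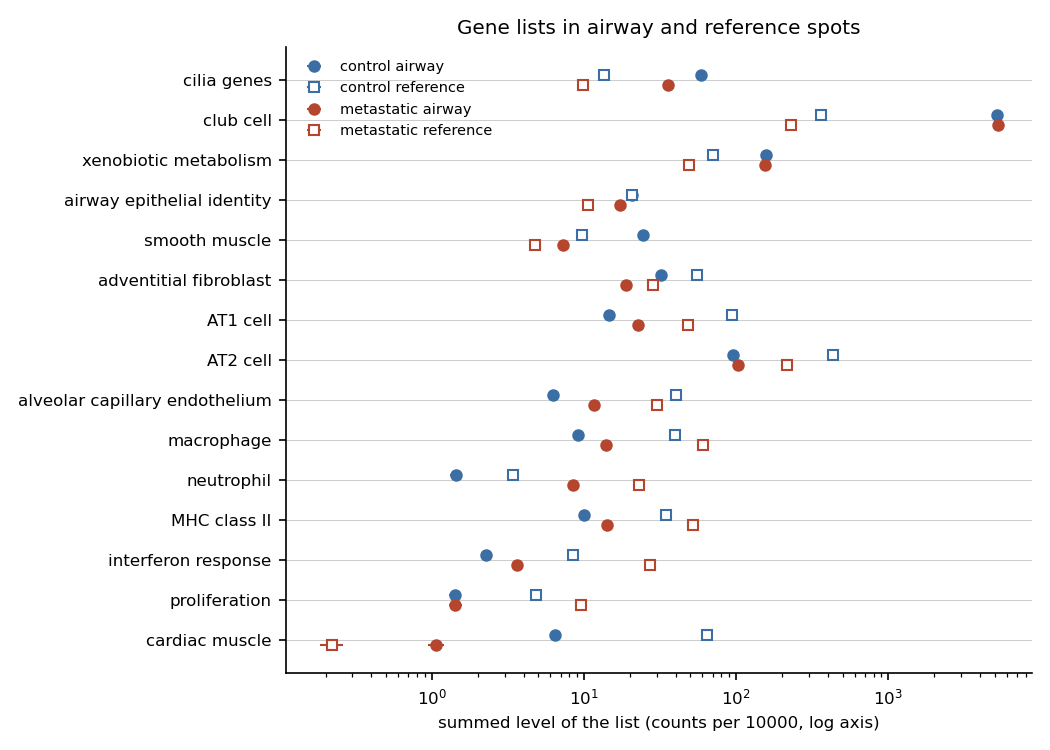
Summed level of each gene list (counts per 10000, log axis) in airway spots (filled circles) and reference spots (open squares) of the control lung (blue) and the metastatic lung (red), with exact 95% Poisson intervals for counting error. Club cell levels of the airways, which are mostly Scgb1a1, nearly coincide. Smooth muscle is lower and the summed neutrophil list is higher in the metastatic lung.

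The airways of the sections were then set against each other, with the control value given first where levels or counts are paired. The club cell programme was at much the same level, with a ratio of metastatic over control airway of 1.02 (1.01 to 1.02) for Scgb1a1 and 1.08 (1.07 to 1.10) for Cbr2. Of 5630 genes with at least 100 counts over both airways, 107 (1.9%) were at least 2-fold higher in the metastatic airway and 151 (2.68%) at least 2-fold lower. A gene can reach 100 counts through 1 airway alone, so counts of list members between airways carry no weight as a test. The median log2 ratio over these genes was 0.06, and 0.08 with Scgb1a1 left out of the total. The counts changed when the largest control patch was left out. Against the 78 control airway spots outside it, 12 genes were 2-fold higher and 37 lower, of the 3799 genes that still reached 100 counts. Over those same genes with the patch included, 85 were higher and 72 lower.

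The airway genes furthest below the control level were secreted proteins of proximal airways, and nearly all of their control counts came from the largest patch. Scgb3a1, a secretoglobin of large airways, ran from 0 through a median of 1.33 to 594 per 10000 over control airway spots, with a count in 129 of 186, and from 0 through a median of 0 to 44.2 over metastatic airway spots, with a count in 16 of 110. Its summed level was 81.8 against 0.797, 103-fold lower in the metastatic airway (89.7 to 118). The largest patch held 99.4% of the control counts, and against the 1.39 outside it the ratio was 0.572 (0.467 to 0.699). Bpifa1, an antimicrobial protein of the upper airways, had 3211 counts against 3, and 10 spots held 82.5% of the control counts. Against the 29 control counts outside the largest patch its ratio was 0.0524 (0.0102 to 0.169). The related Bpifb1 (989 against 14), the trefoil factor Tff2 (571 against 7), the mucin Muc5b (722 against 11) and the antimicrobial lectin Reg3g (409 against 14) followed, with between 98.5% and 99.3% of control counts in the largest patch. Outside it the ratio was 0.507 for Bpifb1 (0.224 to 1.15), Tff2 (0.152 to 1.69) and Muc5b (0.199 to 1.29) alike and 2.37 for Reg3g (0.660 to 12.8, from 3 control counts), and these intervals include 1. Cyp2a5 stood at 4.27 against 0.474, and at 0.393 in control spots outside the largest patch. Of 13 secretory airway proteins with enough counts, 8 were at least 2-fold lower in the metastatic airway and 0 higher, and the median log2 ratio went from -2.80 to -0.13 without the largest control patch.

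Within the largest control patch these genes were graded by place. The patch was divided after the map was seen into 4 bands by array row, of 26, 26, 29 and 27 spots. From rows 23 to 28 to rows 37 to 46, Scgb3a1 went from 369 through 187 and 22.6 to 5.17 per 10000, and Bpifa1 from 68.1 through 3.22 and 0.104 to 0.0317. Muc5b went from 7.03 to 0.349 and Cyp2a5 from 14.4 to 1.25. Scgb1a1 went the other way, from 3394 to 5696, and Cyp2f2 stood between 41.3 and 55.2. Foxj1 was at 2.33, 2.32, 1.13 and 1.17 over the bands, and Cnn1 at 8.97, 3.40, 3.47 and 4.77. Cfd, the adipsin of fat cells, was also highest in the first band, at 15.4, and at 1.06, 1.964 and 0.745 in the others, and the part of fat tissue in these values was not tested.

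**Figure D4:**
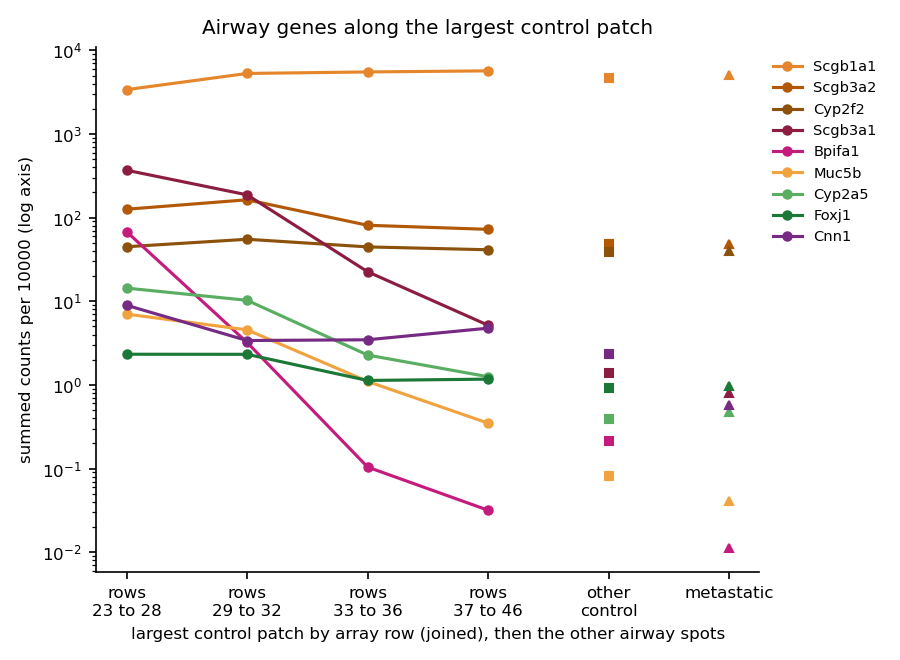
Summed counts per 10000 (log axis) of airway genes in 4 bands of array rows of the largest control patch (joined circles), in the other control airway spots (squares) and in all metastatic airway spots (triangles). Scgb3a1, Bpifa1, Muc5b and Cyp2a5 fall along the patch, Scgb1a1 rises from 3394 to 5696 and Cyp2f2 lies between 41.3 and 55.2.

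Cilia genes were lower in the metastatic airway, by less without the largest control patch. The cilia lists together ran from 12.8 through a median of 47.5 to 143 per 10000 over control airway spots and from 9.24 through a median of 32.2 to 65.6 over metastatic airway spots, so the ranges overlapped. Their summed level was 59.0 against 35.5, a ratio of 0.601 (0.586 to 0.615). Of all 5630 genes set between airways, 151 (2.68%) were at least 2-fold lower, and the median log2 ratio was 0.06. Of 66 cilia members with enough counts 66 were below the control airway, 16 of them at least 2-fold, with a median log2 ratio of -0.73. By patch, the largest control patch was at 69.2 and the other control patches of 5 or more spots between 35.5 and 44.6, while the metastatic patches lay between 30.4 and 41.7. Against control airway spots outside the largest patch the ratio was 0.868 (0.839 to 0.897) and the median log2 ratio -0.17. Foxj1 had a ratio of 0.692 (0.594 to 0.804) over all airway spots and of 1.07 (0.861 to 1.34) without the largest control patch. The lowest ratios among cilia genes were those of AU040972 (-1.65), Dnah2 (-1.62) and Cdhr4 (-1.55). Ciliated-cell genes also enter the score by which the spots were chosen.

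Smooth muscle and fibroblast genes were lower in the metastatic airway with or without that patch. The smooth muscle list stood at 24.6 against 7.25 per 10000, a ratio of 0.295 (0.281 to 0.310), and at 18.4 outside the largest control patch (ratio 0.393, 0.370 to 0.417). Of 11 members with enough counts, 9 were at least 2-fold lower and 0 higher. Cnn1 ran from 0 through a median of 2.37 to 41.6 over control airway spots and from 0 through a median of 0.218 to 6.17 over metastatic airway spots, and its summed level was 3.90 against 0.571. Its patch levels did not overlap, at 1.57 to 4.99 in the control lung and 0.136 to 1.28 in the metastatic lung. Acta2, smooth muscle actin, had a ratio of 0.294 (0.262 to 0.328), Myh11, the smooth muscle myosin, 0.316 and Des, desmin, 0.297. The summed list overlapped between patches, at 15.1 to 28.7 in the control lung and 3.76 to 18.5 in the metastatic lung. Reference spots moved the same way, with a ratio of 0.497 for the list and 0.167 for Cnn1.
Of 11 adventitial fibroblast genes, 9 were at least 2-fold lower and 0 higher. Dcn, the proteoglycan decorin, stood at 1.304 against 0.297, Pi16, a marker of adventitial fibroblasts, at 1.44 against 0.274, and Col1a2, a chain of type I collagen, at 1.85 against 0.718. The list had a ratio of 0.553 without the largest control patch, and of 0.588 in all airway and 0.514 in reference spots.

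The summed neutrophil list was higher in every metastatic patch of 5 or more spots than in any such control patch, and most of its metastatic counts came from S100a9 and S100a8. S100a9, a calcium-binding protein abundant in neutrophils, ran from 0 through a median of 0 to 6.03 per 10000 over control airway spots, with a count in 44 of 186, and from 0 through a median of 3.86 to 30.1 over metastatic airway spots, with a count in 103 of 110. Its 63 and 1108 counts gave 0.167 against 4.16 per 10000, a ratio of 24.9 (19.3 to 32.6), and its partner S100a8 stood at 0.154 against 3.16 (20.5, 15.7 to 27.2). Over patches S100a9 ran from 0 to 0.190 in the control lung and from 1.63 to 8.28 in the metastatic lung, with no overlap. S100a9 and S100a8 gave 1108 and 840 of the 2253 counts of the list in metastatic airway spots, so the list result is largely theirs. Of 4 members with enough counts, 2 were at least 2-fold higher in the metastatic airway, 1 at least 2-fold lower and 1 in between. In control airway spots the list was led by Ltf, lactotransferrin, with 273 counts against 19, and 97.8% of the control counts lay in the largest patch. Csf3r, the receptor of granulocyte colony-stimulating factor, had 7 against 71 counts, and Retnlg, a resistin-like protein, 11 against 53. The list of 12 genes was higher in the reference than in the airway of the metastatic lung, at 23.0 against 8.47, and its ratio between sections was 6.70 in reference and 5.87 in airway spots. The 543 control airway counts of the list include the 273 of Ltf. For S100a9 and S100a8 the log2 ratio between sections was 2.98 and 3.16 in reference spots, and 4.63 and 4.35 in airway spots.

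**Figure D5:**
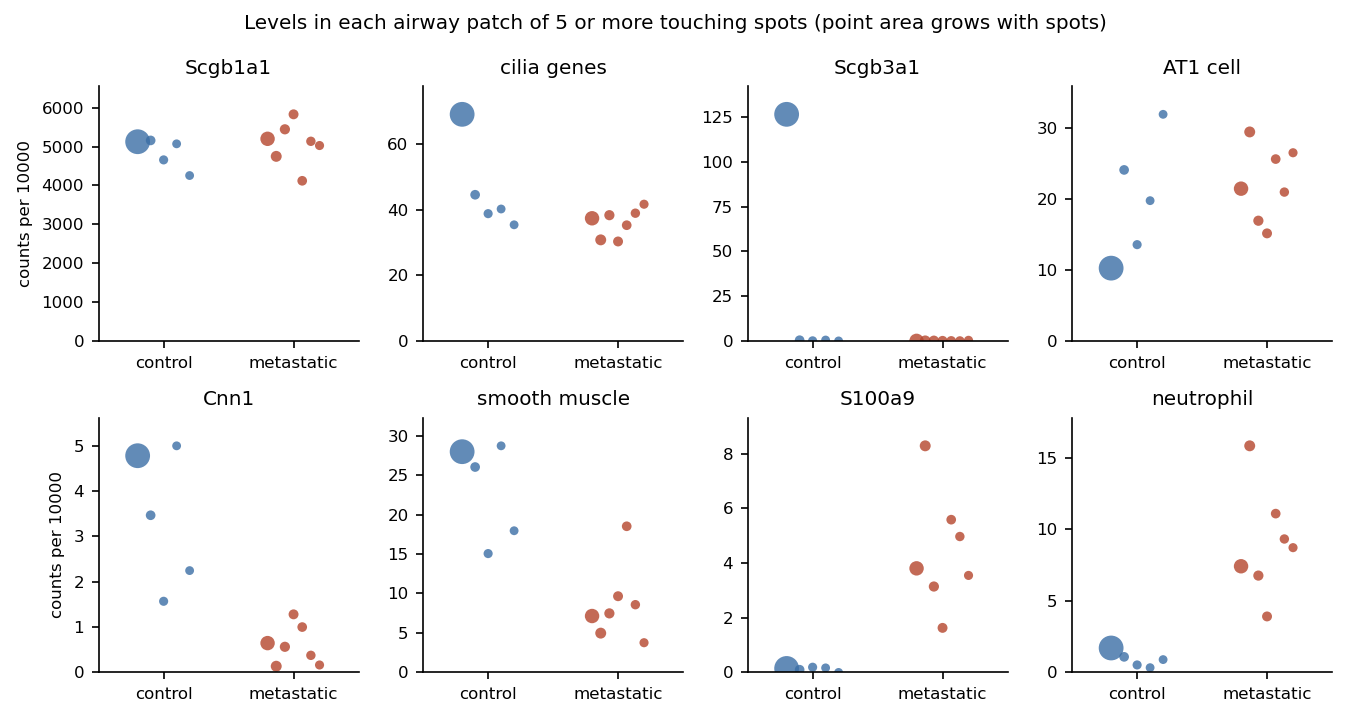
Summed counts per 10000 in each airway patch of at least 5 touching spots, 5 in the control lung (blue) and 7 in the metastatic lung (red), with point area growing with the number of spots. The largest control patch stands alone for Scgb3a1 and cilia genes, and Cnn1 is lower in every metastatic patch. S100a9 and the neutrophil list, whose metastatic counts are mostly S100a9 and S100a8, are higher in every metastatic patch.

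Over all 5630 genes, 27 (0.48%) had every metastatic patch above every control patch and 27 (0.48%) had every metastatic patch below. Among the higher ones, singled out after their values were seen, were Lrg1, an acute phase glycoprotein (0.234 against 0.594 per 10000 in control and metastatic airway spots), and the MHC class I genes B2m (2.79 against 5.77, patches 2.14 to 3.96 and 4.39 to 7.33) and H2-D1 (5.65 against 9.69). For Lrg1, B2m and H2-D1 the log2 ratio between sections was 1.34, 1.05 and 0.778 in airway spots. In reference spots it was 1.49, 1.13 and 0.680. Of the detoxifying enzymes, Fmo2 (1.83 against 4.16), Gsta3 (1.65 against 2.28) and Cyp2b10 (1.81 against 2.30) were higher in every metastatic patch, and Mgst1 (8.06 against 5.71) was lower. In the same order their log2 ratios were 1.18, 0.461, 0.349 and -0.495 in airway spots, and -0.0438, 0.547, -0.882 and -0.114 in reference spots. Lower in every metastatic patch were also Loxl1, Mfap5 and Clec3b of connective tissue, the cilia genes Ak7 (0.688 against 0.361) and Capsl (0.467 against 0.289), and Tcap of striated muscle (0.861 against 0.101). In that order their log2 ratios were -1.81, -1.54, -1.24, -0.926, -0.686 and -3.06 in airway spots. In reference spots they were -1.01, -1.54, -1.14, -0.0365, -1.68 and -7.45. Some of the separations between patches rest on single counts, since 1 control patch of 5 spots had only 22282 counts. The lowest control patch value of Capsl and of Mfap5, 0.449, is 1 count in that patch. For Cyp2b10 the highest control patch was at 1.795 and the lowest metastatic patch at 1.807.
The 10 genes furthest above the control airway were S100a9, S100a8, Wfdc17, Sox18, Foxf1, Itgb2, Smad6, Nt5dc2, Spp1 and Sh2d3c. Sox18, a factor of endothelial cells, stood at 0.0850 against 0.387 and was 4.02 times as high (2.25 to 7.80) as in control spots outside the largest patch. Foxf1, a factor of lung mesenchyme and capillaries, had a ratio of 4.06 over all airway spots and 2.07 in that comparison. The AT1 cell and capillary lists were above the control airway over all spots, with ratios of 1.55 for AT1 cells (1.49 to 1.60), 1.07 for AT2 cells (1.05 to 1.09) and 1.84 for alveolar capillaries (1.75 to 1.95). Without the largest control patch the AT1 ratio was 1.00 (0.960 to 1.05), the AT2 ratio 0.792 (0.777 to 0.808), below 1, and the capillary ratio 1.27 (1.19 to 1.36). MHC class II genes went from 1.41 to 0.971 and macrophage genes from 1.52 to 1.01 in the same step.
Cardiac and fat cell genes made up the rest of the lowest 10. Myl7, an atrial myosin light chain, had 424 counts in control and 0 in metastatic airway spots, at least 99.9-fold lower, Myh6 had 179 and 0, Sln 117 and 0, and Cox8b 109 and 1. Cfd had 1039 against 12 and Car3, a carbonic anhydrase of fat and muscle, 279 against 3. Airway spots held 2.13% of the Myl7 counts of the control section, and the part of neighbouring heart and fat tissue in the control airway values was not tested.

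The airway over reference ratio itself differed between sections for some genes. Of the 10890 genes, 11 were at least 2-fold higher in the control lung and 2-fold lower in the metastatic lung, and 0 the reverse. These ratios are on all counts, where the median gene of the metastatic lung was itself at -1.06. Mt2, a metallothionein, stood at 0.359 against 0.0956 in airway and reference spots of the control lung and at 0.173 against 1.42 in the metastatic lung, a difference of log2 ratios of -4.92. Ltf had log2 ratios of 4.20 and -0.76. Others among the lowest differences were C130026I21Rik, 1700012B09Rik, Basp1, Sgms2 and Adam8, all with reference levels at least 5.11 times as high in the metastatic lung. Among control patches, Ltf, Basp1 and Adam8 were highest in the largest patch. At the other end were Actc1, Mlf1, Dnah5, Rbp4, Esyt3, Dapk2, Col6a5 and Plb1. The difference for Dnah5 was 1.93, rested on 1 reference count in the metastatic lung, and was -0.189 when Tppp3 was left out of the score. Actc1, cardiac actin, was at 2.49 against 4.49 in the control lung and at 0.849 against 0.103 in the metastatic lung. Mlf1, a gene also high in ciliated cells, had log2 ratios of 2.30 and 4.35, with 111 and 11 reference counts. Saa3, an acute phase protein named after its values were seen, was at 0.0903 against 0.158 in the airways, while its reference level was 0.0507 in the control lung and 8.84 in the metastatic lung.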

How the data were processed

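Visium libraries were made from fresh-frozen lung. Per the labels the authors used Space Ranger 1.3.1 and the mm10 build, and they deposited raw counts of 32285 features for each spot. Spots outside tissue and 27 control and 6 metastatic spots under 1000 counts were left out. Airway spots had 3765243 and 2660596 counts in all. Counts were summed over airway and reference spots and given per 10000. Log2 ratios used a pseudocount of 0.5 counts, for genes with at least 50 counts in airway and reference spots of a section (100 over both airways). Ratios had exact binomial intervals and levels exact Poisson intervals. A 2-fold change was a size, not a test, and the steps were tested on simulated data. Named genes were the score genes, members of 39 gene lists, the 12 highest and 12 lowest in both sections, the 10 highest and 10 lowest between airways and the 8 highest and 8 lowest differences of the ratio; others are named as chosen after their values were seen. Members and lists were chosen with earlier results of these data known. Alternatives covered the score, thresholds, depth, library size, filter and pseudocount. Dnai1 and Dnai2 were not matched to the table. Some genes that the rule names are not reported here. Python 3.11.15, numpy 2.4.6, scipy 1.17.1 and pandas 2.3.3 were used.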

Additional observations from a re-analysis of the deposited data

Results flagged for a closer look

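On all counts some genes lay above the reference in the control airway and below it in the metastatic airway, and the difference between the sections was not tested. On that scale the median log2 ratio of all genes was -1.10 in the control lung and -1.06 in the metastatic lung. Mt2, a metallothionein, had a log2 ratio of airway over reference of 1.90 in the control lung and -3.02 in the metastatic lung. C130026I21Rik had a log2 ratio of airway over reference of 3.13 in the control lung and -1.20 in the metastatic lung, the latter close to the median of all genes. Basp1, a membrane protein, had a log2 ratio of airway over reference of 1.02 in the control lung and -3.24 in the metastatic lung. Sgms2, a sphingomyelin synthase, had a log2 ratio of airway over reference of 1.72 in the control lung and -2.24 in the metastatic lung. Adam8, a metalloprotease of leukocytes, had a log2 ratio of airway over reference of 2.04 in the control lung and -1.62 in the metastatic lung. The reference level of each was higher in the metastatic lung, by 5.11 to 14.8 times.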

How the results depend on the processing

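Results were recomputed under 20 alternatives and 3 that were chosen after seeing the data (either section's airway without its largest patch, and the control reference without its 96 spots rich in cardiac genes). Those 3 were not applied to the metastatic airway over reference values or to the number of genes higher in both sections. Nor were they applied to the difference between sections of the airway over reference ratio. No replicate could be left out, and no paired analysis was possible because each condition had 1 section. Over the alternatives the median log2 ratio of airway over reference for cilia genes ranged from 3.10 to 4.67 in the control lung and from 3.10 to 4.995 in the metastatic lung. Between airways the median ranged from -1.13 to -0.17 for cilia genes, from -1.85 to -1.27 for smooth muscle and from -3.81 to -0.13 for secretory airway proteins. Each median is over the members that reached the limit on counts in that alternative, so the members can differ. Of the values of single genes, 1592 moved by less than the 95% counting error of the reported log2 ratio, 155 by more and 1 changed sign, the difference between sections for Dnah5, which was 1.93 and became -0.189 with the score without Tppp3. List medians stayed within 0.5 log2 in 709 cases and moved further in 149.

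Counts of genes past 2-fold changed by over 1.5 times in 38 of the cases and by less in 108. Without Scgb1a1 in the library size, 1221 genes were higher and 1694 lower in the control airway, 912 and 1016 in the metastatic airway, and 599 higher in both. With other abundant genes left out too, these were 1102, 1983, 900, 1021 and 560. With spots thinned to 5000 counts (1526 control and 1028 metastatic spots kept) they were 245, 4168, 90, 2437 and 71, with 53 higher and 53 lower between airways. Fewer genes reach the limit on counts after thinning. With a limit of 10 counts, 1022 genes were higher in the control airway, 825 in the metastatic airway and 623 in both, with 700 higher and 761 lower between airways. With a limit of 200 counts these were 212, 115 and 75, with 3853 lower in the metastatic airway, and 47 and 92 between airways, again with fewer genes in the count. Without the largest control patch, 306 genes were higher in the control airway, and 12 were higher and 37 lower between airways. With the top 20% of spots as airway, 3712 genes were lower in the control airway and 31 higher between airways. Genes higher in the metastatic than in the control airway numbered 43 with 1 threshold for both sections, 62 with Cyp2f2 as the score, 31 with the 4 ciliated-cell markers alone (the score without Cyp2f2), 68 without Ccdc153 and 65 without Sec14l3. The cause was not tested where no construction of the alternative shows it.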

Other observations

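Scgb3a2, a secretoglobin of club cells, was graded less steeply than Scgb3a1 within the largest control patch, at 126, 164, 81.1 and 72.5 per 10000 over the 4 bands, against 49.0 in control airway spots outside it and 48.0 in metastatic airway spots. Adh7, an alcohol dehydrogenase, and Sult1d1, a sulfotransferase, were lower in the metastatic airway among xenobiotic enzymes, with log2 ratios of -2.76 and -3.53. Against control spots outside the largest patch, which had 5 and 10 counts, the ratios were 0.608 (0.155 to 2.52) and 0.456 (0.164 to 1.25), and both intervals include 1.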
